A study of Mus musculus with 10 samples.

Results

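Conjugating transferases attach a polar group to drugs, hormones, bile pigments and products of lipid oxidation. The genes described here encode 4 classes of them: the UDP-glucuronosyltransferases, the soluble glutathione S-transferases with the mitochondrial and peroxisomal kappa enzyme, the microsomal glutathione S-transferases and the cytosolic sulfotransferases. They were taken by name from the expression table: protein-coding genes whose symbol begins with Ugt1a, Ugt2a, Ugt2b, Ugt3a, Mgst or Sult, or with Gst, a class letter (a, k, m, o, p, t or z) and a digit. This gave 68 of 56748 genes, or of 21970 protein-coding ones: 21 glucuronosyltransferases, 23 soluble and kappa glutathione transferases, 3 microsomal glutathione transferases and 21 sulfotransferases. A further 1 processed and 6 unprocessed pseudogenes carry such names and were left aside.

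RNA came from mouse colon organoids, three-dimensional cultures of gut epithelium without stroma. Those of 5 libraries (replicates 6 to 10) received WY-14643 at 100 µM for 2 days, and those of 5 libraries (replicates 1 to 5) received vehicle for the same time. In both groups the exposure began 3 days after passage. WY-14643, also called pirinixic acid, is a synthetic agonist of PPARα, the nuclear receptor that senses fatty acids. The comparison asks what the agonist changes in colon epithelium. The labels name no strain, age, animal or organoid line and do not say what the vehicle was, so p-values reflect how much these libraries vary, and part of that variation may be technical. No group lacked the receptor, so a difference cannot be tied to it.

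Glucuronosyltransferases sit in the endoplasmic reticulum and use UDP-glucuronic acid, glutathione transferases use the tripeptide glutathione, and sulfotransferases use the activated sulfate PAPS. Conjugates are more soluble than their parent compounds and leave the cell through ABC transporters. In gut epithelium these enzymes meet food constituents, drugs and microbial products. In liver, several of the genes are known to respond to the xenobiotic receptors PXR and CAR, the dioxin receptor AhR and the oxidant-sensing factor Nrf2 (gene Nfe2l2), and glucuronosyltransferases also to PPARα.

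Short promoters of the 5 genes with the smallest p among the 68 in the matched comparison described below are printed here, because the letters that these factors are known to bind can be looked for in them. Each runs from 250 bases before to 50 bases after a start site, 5′ to 3′ on the gene's strand, from RefSeq on build GRCm38.p6. Capitals mark matches, on either strand, to 1 of 4 motifs: TGACNNNGC, the core bound by Nrf2; AGGTCA, the half-site of nuclear receptors; AGGTCANAGGTCA, a direct repeat of that half-site as PPARα with its partner RXR binds it; and GCGTG, the core bound by AhR.
Ugt1a7c, chr1:88094751-88095050, plus strand: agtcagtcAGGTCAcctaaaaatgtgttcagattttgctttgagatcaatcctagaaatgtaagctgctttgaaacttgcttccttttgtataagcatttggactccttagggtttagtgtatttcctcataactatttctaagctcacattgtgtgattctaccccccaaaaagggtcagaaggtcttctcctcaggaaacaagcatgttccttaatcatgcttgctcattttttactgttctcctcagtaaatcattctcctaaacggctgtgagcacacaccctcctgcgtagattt
Gstm1, downstream start site, chr3:108017769-108018068, minus strand: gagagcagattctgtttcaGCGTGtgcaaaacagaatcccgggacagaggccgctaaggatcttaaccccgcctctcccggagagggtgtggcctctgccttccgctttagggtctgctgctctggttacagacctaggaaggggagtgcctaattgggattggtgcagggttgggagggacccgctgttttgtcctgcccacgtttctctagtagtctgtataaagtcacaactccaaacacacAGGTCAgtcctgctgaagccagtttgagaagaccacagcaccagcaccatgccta
Sult1d1, chr5:87568957-87569256, minus strand: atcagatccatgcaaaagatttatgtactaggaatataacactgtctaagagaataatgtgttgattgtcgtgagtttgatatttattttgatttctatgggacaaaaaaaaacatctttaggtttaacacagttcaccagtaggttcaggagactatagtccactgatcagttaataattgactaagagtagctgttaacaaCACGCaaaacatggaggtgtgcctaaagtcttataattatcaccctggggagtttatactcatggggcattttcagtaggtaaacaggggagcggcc
Gsta3, chr1:21240335-21240634, plus strand: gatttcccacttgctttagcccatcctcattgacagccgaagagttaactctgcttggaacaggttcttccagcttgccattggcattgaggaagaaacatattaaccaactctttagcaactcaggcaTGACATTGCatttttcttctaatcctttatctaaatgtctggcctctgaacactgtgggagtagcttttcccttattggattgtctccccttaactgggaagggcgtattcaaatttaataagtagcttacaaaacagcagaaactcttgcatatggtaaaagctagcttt
Mgst3, chr1:167393792-167394091, minus strand: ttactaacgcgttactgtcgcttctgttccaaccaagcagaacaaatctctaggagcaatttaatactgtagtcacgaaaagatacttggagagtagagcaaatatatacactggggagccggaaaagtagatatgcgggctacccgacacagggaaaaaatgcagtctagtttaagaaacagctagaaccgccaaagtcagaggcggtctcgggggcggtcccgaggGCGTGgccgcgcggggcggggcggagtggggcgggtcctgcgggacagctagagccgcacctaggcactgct
The promoter of Ugt1a7c held a half-site that starts 242 bases before the start site. Gsta3 held the Nrf2 core, 121 bases before. Gstm1 held a half-site 5 bases before and an AhR core 231 bases before this start site, and the window of its upstream start site overlaps the one printed. Sult1d1 and Mgst3 held an AhR core each, 47 and 22 bases before.

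Of the 68 genes, 59 matched the RefSeq table, with 71 promoters. They were set beside all 32851 promoters of the table. The Nrf2 core lay in 4 of the 71 (5.63%, against 12.4% of all), the half-site in 12 (16.9%, against 16.3%), the AhR core in 14 (19.7%, against 32.4%) and the direct repeat in 0 (0%, against 0.0396%). TGACNNNGC can overlap TGACCT, the half-site read on the other strand. The shares of the Nrf2 and AhR cores were below those of all promoters, and that of the half-site was near it; these shares were not tested. A match describes letters only, and its absence says only that these letters are not in this window.

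Values are FPKM, reads scaled by gene length and by library, as deposited. Between 16136440 and 22209003 gene-assigned reads stood behind the WY-14643 libraries and between 15618244 and 29271304 behind the vehicle libraries. Mitochondrial genes took 0.792% to 2.58% of the reads. Epithelial markers were abundant (Krt19 at 1797 ± 454 and 1841 ± 365 FPKM in WY-14643 and vehicle organoids, SD, n = 5 each; Krt8 at 1735 ± 672 and 1713 ± 482 FPKM). The intestinal factors Cdx2 and Cdx1 and the colon carbonic anhydrase Car1 were present. Hoxa13, Hoxb13 and Hoxd13, known from the distal colon, and the colonocyte carbonic anhydrase Car4 were listed at 0 in all 10 libraries. Summed over their marker lists, fibroblasts (at most 0.301 and 0.556 FPKM in WY-14643 and vehicle libraries), endothelium (at most 0.174 and 0.179 FPKM) and liver (at most 0.544 and 0.483 FPKM) were near 0. The immune list summed to 3.16 to 6.64 FPKM in WY-14643 and 3.19 to 5.86 FPKM in vehicle libraries, most of it Cd68, a macrophage marker (3.56 ± 1.66 and 3.93 ± 1.25 FPKM), while Cd3e was listed at 0 in all 10 libraries. The small intestine list summed to at most 4.41 and 4.27 FPKM, enteroendocrine cells to at most 1.76 and 2.07 FPKM and tuft cells to at most 0.441 and 0.365 FPKM in WY-14643 and vehicle libraries.

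A total of 13607 genes with a mean of at least 0.5 FPKM were tested with limma on log2(FPKM + 1), without pairs, and p-values were adjusted by the Benjamini-Hochberg method over all of them. No gene passed an adjusted p of 0.05 (205 had an unadjusted p under 0.05, and voom on the recovered reads also called 0). WY-14643 replicates 6 to 10 nevertheless deviated from their group mean together with vehicle replicates 1 to 5, in that order. A second limma fit therefore took these 5 pairs as a block (the matched fit), and it called 39 genes higher and 4 lower. "Rose" below is used only of genes that passed in that fit. Each fold change is a difference of mean log2(FPKM + 1), smaller than the true one for genes near the filter, and the error given with it is its matched standard error or 95% interval.

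As a check of the treatment, 12 known PPARα targets were tested and 7 rose in the matched fit (against 0.287% of all genes called higher). They were Cpt1a, the gate of mitochondrial fatty acid oxidation (26.6 ± 3.52 against 11.5 ± 2.39 FPKM in WY-14643 and vehicle organoids, log2 fold change 1.15 ± 0.0837, adjusted p = 0.01 by limma), and Acadl, Acaa2, Ech1, Cpt2, Slc25a20 and Ehhadh. Ppara itself was below the filter, with 0.336 ± 0.177 and 0.298 ± 0.174 FPKM.

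The 4 classes were unevenly expressed. Of the 68 genes, 19 had no read in any library, 9 glucuronosyltransferases and 10 sulfotransferases. A count of 0 allows up to 3 reads assigned to the gene, or 0.0234 to 0.257 FPKM depending on gene and library. They were Ugt1a8, Ugt1a9, Ugt1a10, Ugt2a1, Ugt2a2, Ugt2b37, Ugt2b38, Ugt3a1, Ugt3a2, Sult2a1 to Sult2a6, Sult2a8, Sult3a1, Sult3a2 and Sult5a1. In GENCODE M21 Ugt2a1 and Ugt2a2 have 30 of 2570 and 140 of 2541 exon bases in no other gene on either strand. Ugt1a8, Ugt1a9 and Ugt1a10 have 909, 879 and 809 such bases. Since the handling of reads in shared exons is not given in the sources used here, the limit does not cover reads of these 5 genes that were left unassigned or given to another gene. Another 14 were detected but averaged under 0.5 FPKM, with at most 34 reads and 0.619 FPKM in a library: Gstt4, Sult1c1, Sult1e1, Sult2a7, Sult4a1, Sult6b1, Sult6b2, Ugt1a2, Ugt1a5, Ugt1a6b, Ugt2a3, Ugt2b1, Ugt2b5 and Ugt2b35. The remaining 35 were tested: 22 soluble and kappa glutathione transferases, 3 microsomal ones, 5 glucuronosyltransferases and 5 sulfotransferases. Sult1a1, a phenol sulfotransferase, and Ugt2b36 exceeded a mean of 0.5 FPKM in 1 group only (0.499 and 0.762 FPKM, and 0.727 and 0.492 FPKM, in WY-14643 and vehicle organoids).

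Soluble and kappa glutathione transferases made up 81.1% of the FPKM of the 68 genes. Summed, they reached 889.5 ± 145 FPKM in WY-14643 and 785.7 ± 168 FPKM in vehicle organoids (SD, n = 5 each). The microsomal class summed to 102 ± 22.8 and 63.3 ± 14.3 FPKM, the sulfotransferases to 79.1 ± 49.2 and 60.4 ± 45.6 FPKM, and the glucuronosyltransferases to 45.7 ± 19.4 and 38.7 ± 22.9 FPKM. The WY-14643 sum was the higher in 5 of 5 pairs for each class except the glucuronosyltransferases, where it was in 4. Sums were not tested, and reads of exons shared between Ugt1a genes may be missing from the glucuronosyltransferase sum. In these bulk libraries more cells of a type and more RNA per cell cannot be told apart.

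**Figure D1:**
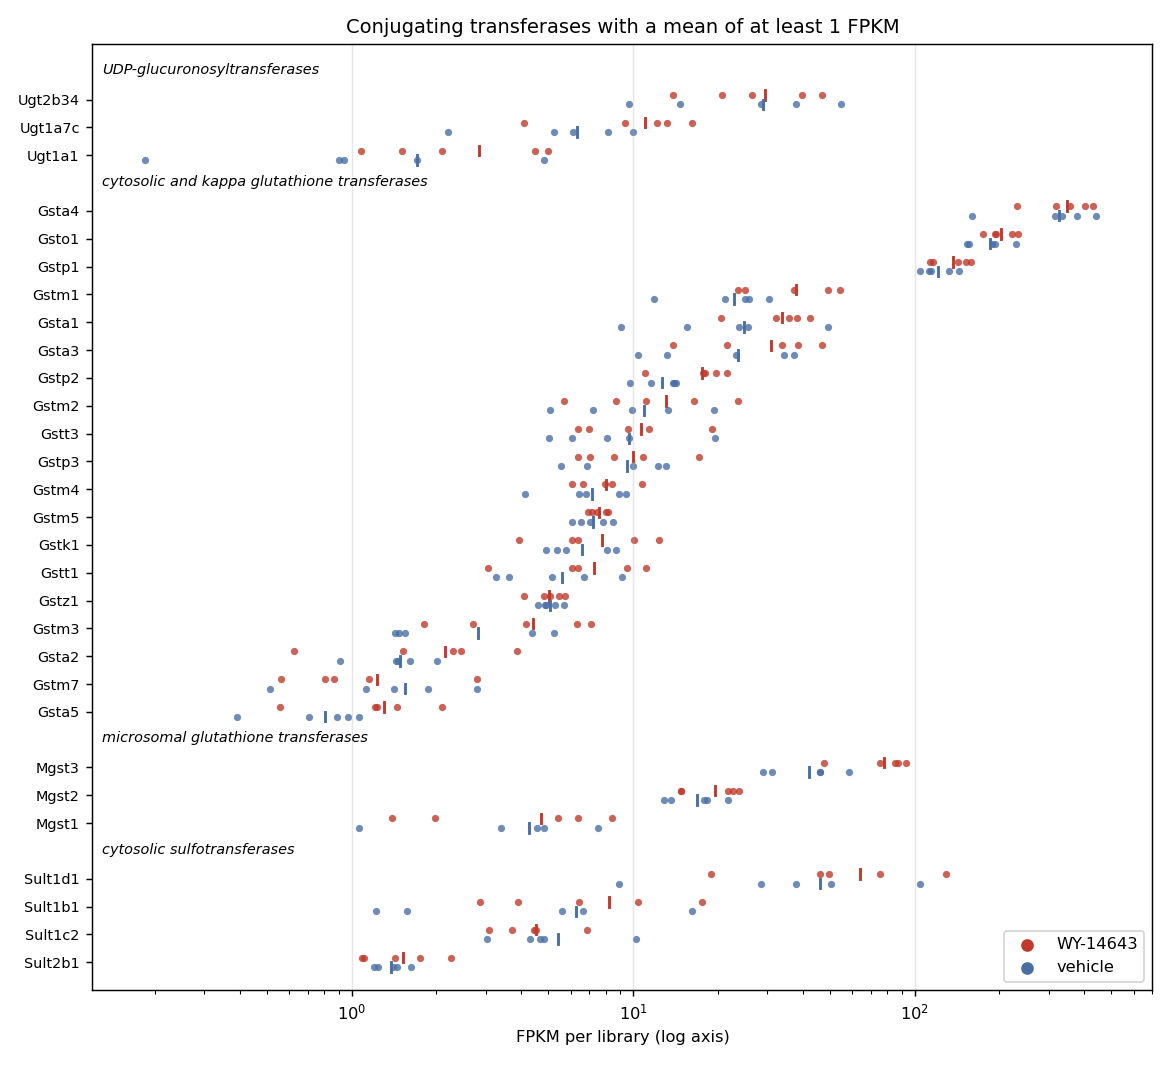
FPKM of the 29 genes with a mean of at least 1 FPKM (log axis), by enzyme class; each point is a library, red for WY-14643 and blue for vehicle, and the short bars mark group means. Gsta4, Gsto1 and Gstp1 stand above 100 FPKM in every library, and the 2 groups overlap in every row.

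Of the 68 genes Ugt1a7c was the one that rose, averaging 11.0 ± 4.57 FPKM in WY-14643 and 6.33 ± 2.96 FPKM in vehicle organoids (SD, n = 5 each), and it did so in the matched fit. Mgst3, Gstm1, Sult1d1 and Gsta3, described below, stood higher in every pair without passing, and 0 of the 35 tested genes fell. Without pairs, 0 of the 35 passed with limma, as did 0% of all genes in either direction, and voom without pairs also called 0. In the matched fit 1 of the 35, Ugt1a7c, rose (2.86%, against 0.287% of all genes called higher) and 0 fell (0.0294% of all genes called lower). At an unadjusted p under 0.05 the matched fit had 17 of 35 higher (48.6%, against 5.48% of all genes) and 0 lower (against 5.09%). Without replicates 6 and 1 it had 2 lower, Gstm7 and Sult1c2. Without pairs these counts were 3 higher (8.57%, against 1.01%) and 0 lower (against 0.492%). The WY-14643 value exceeded its matched vehicle value in all 5 pairs for 14 of 35 (40.0%, against 5.63%), and lay below it in all 5 for 0 (against 6.09%). Among the 14 is Ugt2b36, which exceeded a mean of 0.5 FPKM in WY-14643 organoids only.

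The log2 fold change was above 0 for 31 of the 35 (88.6%, against 47.1% of all genes), with a median of 0.22 against -0.01 over all genes tested. Medians by class were 0.36 for glucuronosyltransferases, 0.20 for soluble and kappa glutathione transferases, 0.20 for microsomal ones and 0.06 for sulfotransferases. The 4 genes with a fold change under 0 were Gstm7, Sult1c2, Sult1a1 and Gstz1, at -0.20 to -0.01. Of these, Sult1a1 exceeded a mean of 0.5 FPKM in vehicle organoids only, and Ugt2b36, among the 31, in WY-14643 organoids only. For none of the 35 did every WY-14643 library lie above every vehicle library (0%, against 0.243% of all genes), and for none did every one lie below (0%, against 0.11%).

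**Figure D2:**
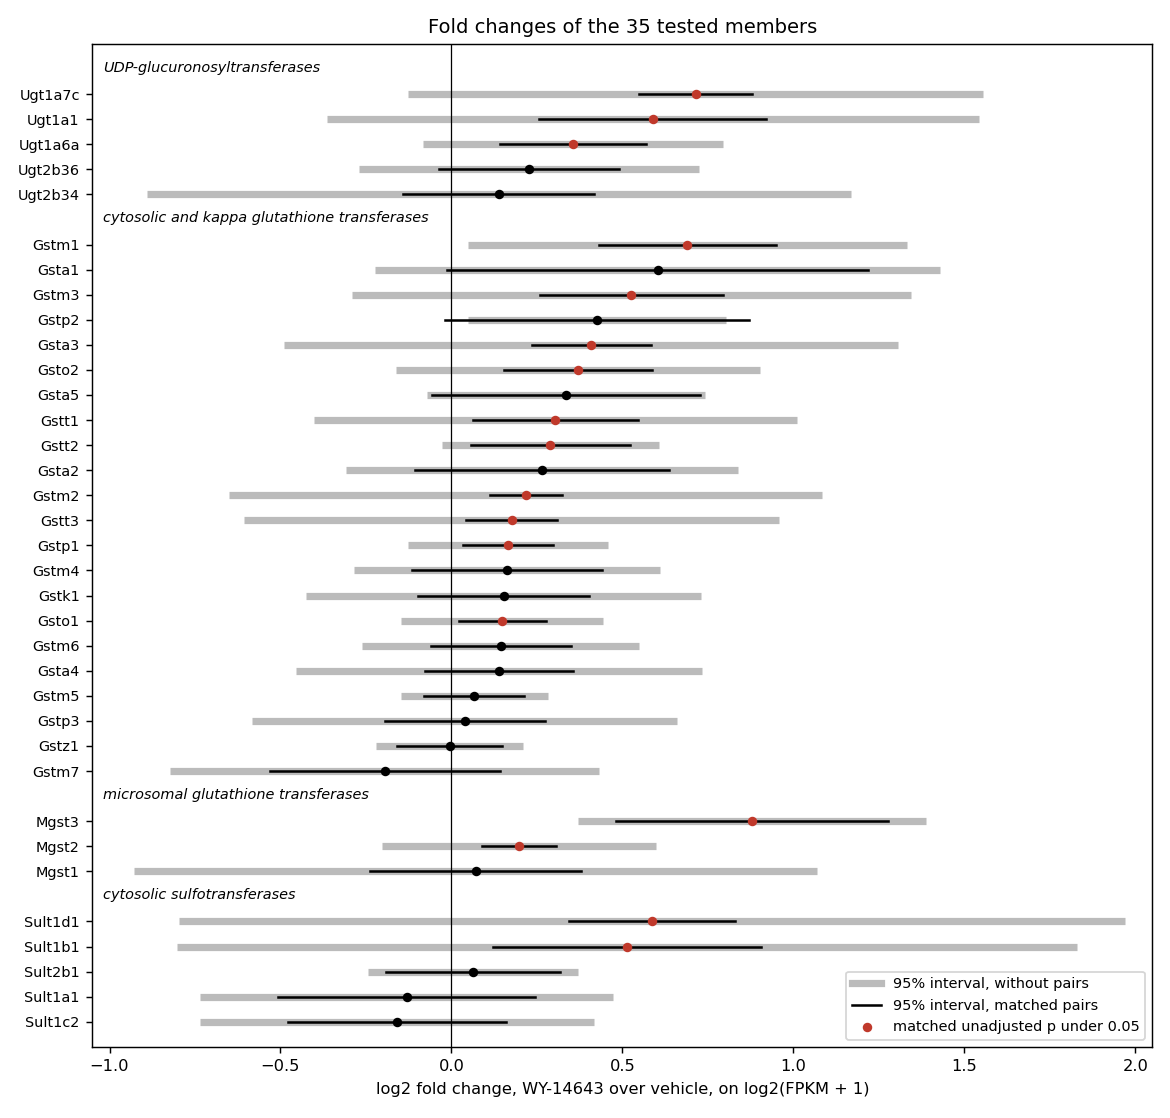
Log2 fold changes (WY-14643 over vehicle, on log2(FPKM + 1)) of the 35 tested genes by class, with 95% intervals without pairs (grey) and with matched pairs (black); red points have an unadjusted matched p under 0.05. The matched intervals of 17 genes lie wholly above 0, and 0 lie wholly below.

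Among the glucuronosyltransferases, the Ugt1a locus carried the call. Ugt1a7c (chr1:88022784-88147724, plus strand, mm39) had 13.2, 16.2, 12.2, 9.32 and 4.10 FPKM in WY-14643 replicates 6 to 10, against 6.11, 10.01, 8.12, 5.23 and 2.20 FPKM in vehicle replicates 1 to 5. Each WY-14643 library stood above its matched vehicle library, by up to 2.15 times, although the groups overlapped. The log2 fold change was 0.71 ± 0.0699 (95% interval 0.55 to 0.88), with an adjusted p of 0.0213 in the matched limma fit and an unadjusted p of 0.0878 without pairs. Leaving out 1 pair at a time gave matched adjusted p-values of 0.0302 to 0.0913: the call held without replicates 6 and 1, and was lost without each of the other 4 pairs. Its half-site is the match printed above.

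The genes of this locus are alternative first exons spliced to shared exons, so reads in the shared part cannot be given to 1 of them. In GENCODE M21 models, whose exon lengths equal the table's gene lengths for all 68 genes, 1915 of the 4219 exon bases of Ugt1a7c lie in no exon of another gene. Of these, 917 lie in the part before the common 3′ end and 998 lie past it, since its model runs 1005 bases further than the common end. A transcript of any first exon that reads into this stretch could be counted for Ugt1a7c. Ugt1a8, Ugt1a9 and Ugt1a10 hold exons shared with it yet had no read, so reads in shared exons were not counted for every gene. How else reads with several matches were handled is not given in the sources used here. The call is therefore one on reads assigned to Ugt1a7c, 199 to 1226 per library, and not on a first exon.

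**Figure D3:**
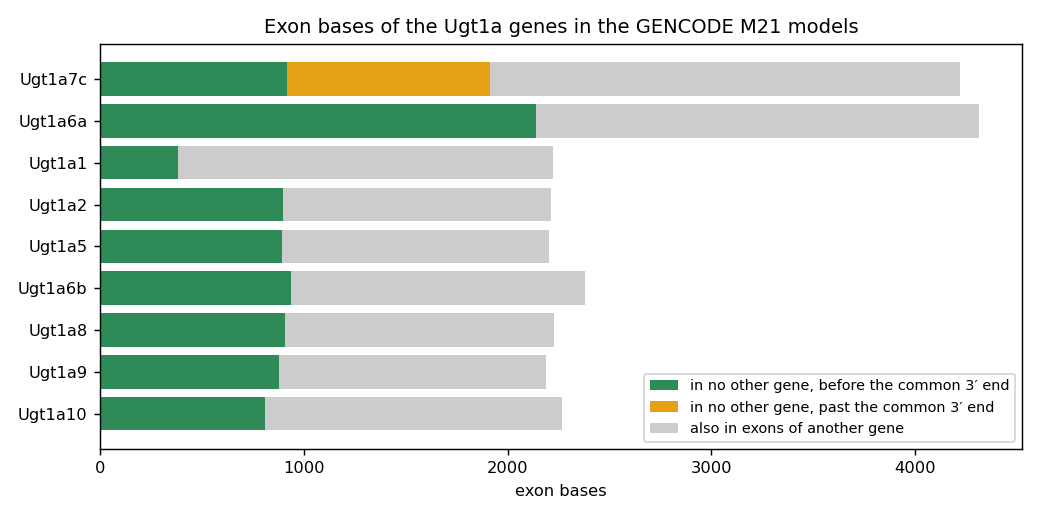
Exon bases of the 9 Ugt1a genes in GENCODE M21 models, split into bases in no other gene's exons before the common 3′ end (green) or past it (orange) and bases shared with another gene on either strand (grey). Ugt1a7c is the only one of the 9 with unshared bases past the common end, 998 of 4219.

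Ugt1a1, the bilirubin-conjugating enzyme, had 1.08, 4.98, 2.10, 4.47 and 1.51 FPKM in WY-14643 replicates 6 to 10, against 0.184, 4.83, 0.938, 1.71 and 0.902 FPKM in vehicle replicates 1 to 5. It was higher in all 5 pairs, by a small margin in the pair of replicates 7 and 2 (log2 fold change 0.59 ± 0.140, adjusted p = 0.184 in the matched limma fit). Ugt1a6a, which conjugates small planar phenols, averaged 0.984 ± 0.571 and 0.525 ± 0.282 FPKM in WY-14643 and vehicle organoids and was also higher in all 5 pairs (adjusted p = 0.210 in the matched limma fit). Only 385 of the 2224 exon bases of Ugt1a1 lie in no other gene on either strand. Other genes share 82.7% of its exon bases on either strand and 58.95% on the same strand. Whether counting used strand is not given in the sources used here. The 9 genes of the locus summed to 14.9 ± 5.97 FPKM in WY-14643 and 8.59 ± 4.60 FPKM in vehicle organoids, higher in all 5 pairs. Reads of shared exons may be missing from this sum.

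The Ugt2b genes lie on chromosome 5, and enzymes of this group conjugate steroids and drugs. FPKM divides by all exon bases, so Ugt1a levels are too low beside them if reads in shared exons were left unassigned. By FPKM Ugt2b34 was the most abundant glucuronosyltransferase, with 20.7, 46.8, 26.4, 39.9 and 13.8 FPKM in WY-14643 replicates 6 to 10. Vehicle replicates 1 to 5 had 14.6, 54.6, 28.6, 37.8 and 9.67 FPKM of Ugt2b34. Its WY-14643 value was the higher in 3 of 5 pairs, with a log2 fold change of 0.14 and a matched 95% interval of -0.14 to 0.42. Differences between pairs held 95.5% of its total sum of squares on the log2 scale, and differences between groups 0.835%. These shares were not divided by degrees of freedom, of which pairs have more than groups. The Ugt2b sum was 30.8 ± 14.1 and 30.1 ± 18.6 FPKM in WY-14643 and vehicle organoids. Whether the fold changes of the Ugt1a and Ugt2b genes differ was not tested.

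Among the soluble glutathione transferases, Gstm1 of the mu class had the smallest matched p. This gene (chr3:107919571-107925289, minus strand, mm39), which conjugates electrophiles such as epoxides, had 25.0, 54.5, 37.3, 23.6 and 49.1 FPKM in WY-14643 replicates 6 to 10, against 21.3, 30.3, 25.0, 11.8 and 25.8 FPKM in vehicle replicates 1 to 5. It was higher in all 5 pairs, by 1.17 to 1.99 times, with the smallest ratio in the pair of replicates 6 and 1. The log2 fold change was 0.69 ± 0.109 (adjusted p = 0.0747 in the matched limma fit, unadjusted p = 0.0376 without pairs). It passed with voom on recovered reads with pairs (adjusted p = 0.00152) and, in the matched limma fit, without replicates 6 and 1 (adjusted p = 0.0302).

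The voom fit with pairs called 5 of the 35 genes higher (against 1.19% of all genes) and 0 lower (against 0.367%). They were Ugt1a7c (adjusted p = 0.000118), Gstm1, Gsta3 (adjusted p = 0.00839), Sult1d1 (adjusted p = 0.00842) and Ugt1a6a (adjusted p = 0.0182).

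The 7 Gstm genes lie within 149.1 kb of chromosome 3 and did not all stand alike. Gstm2 averaged 13.1 ± 7.08 and 11.0 ± 5.60 FPKM in WY-14643 and vehicle organoids, higher in all 5 pairs by small steps (log2 fold change 0.22 ± 0.0443, adjusted p = 0.126 in the matched limma fit). Gstm3 averaged 4.41 ± 2.27 and 2.81 ± 1.84 FPKM, higher in all 5 pairs (0.53 ± 0.114, adjusted p = 0.144 in the matched limma fit). Gstm4 (7.99 ± 1.83 and 7.14 ± 2.13 FPKM) and Gstm5 (7.54 ± 0.549 and 7.19 ± 0.970 FPKM) had matched intervals that included 0. Gstm7 averaged 1.23 ± 0.889 and 1.54 ± 0.855 FPKM and was lower in 4 of 5 pairs. Gstm6 lay at 0.663 and 0.506 FPKM. Of the 100-base windows of Gstm3, 13.8% occur in other genes (Gm8834, Gstm2-ps1, Gstm6 and Gstm1), as do 5.86% of those of Gstm1. Their split of reads is uncertain to that extent. Exons of Gstm5 overlap a gene on the other strand (13.9% of its exon bases), and whether counting used strand is not given in the sources used here.

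**Figure D4:**
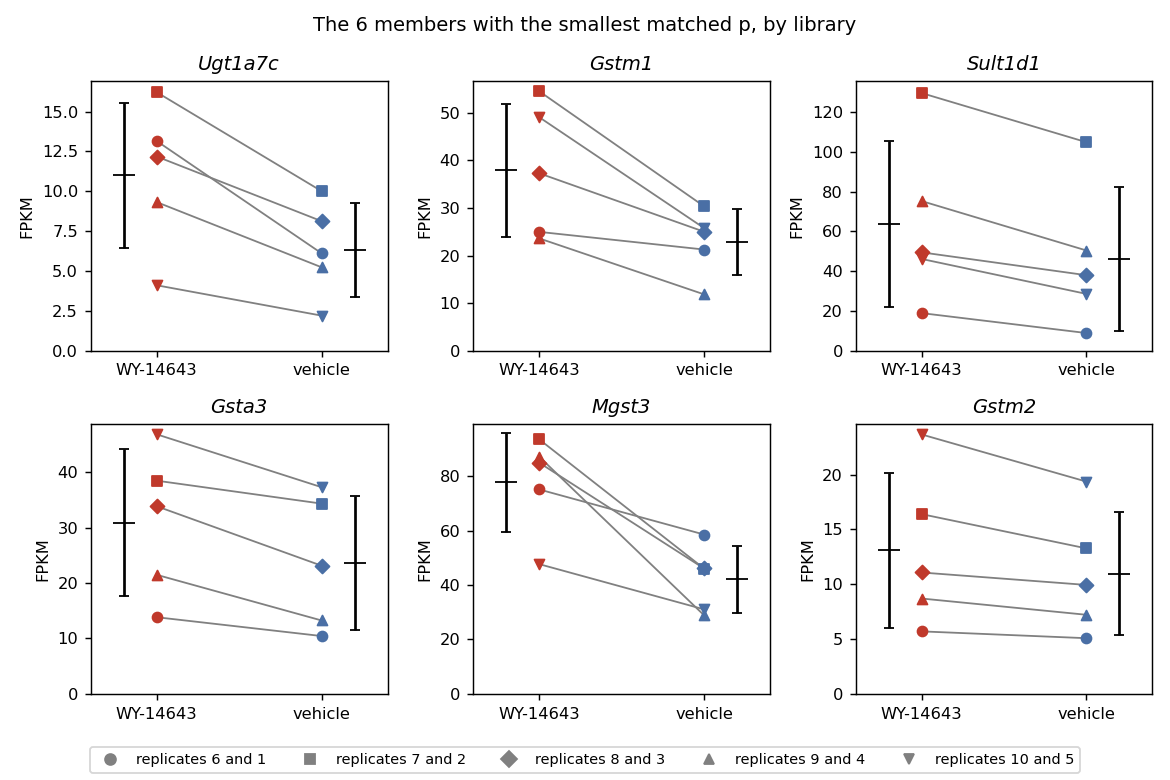
FPKM per library of the 6 tested genes with the smallest matched p, with grey lines joining matched libraries (WY-14643 left, vehicle right) and black bars for the mean ± SD of each group (n = 5). Every line is higher on the WY-14643 side, while the group bars overlap in each panel except that of Mgst3.

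The alpha class held the most abundant gene of all 68. Gsta4, which conjugates the lipid peroxidation product 4-hydroxynonenal, had 318, 404, 355, 230 and 431 FPKM in WY-14643 replicates 6 to 10, against 316, 443, 333, 160 and 377 FPKM in vehicle replicates 1 to 5. It took 32.6% of the FPKM of the 68 genes and was higher in 4 of 5 pairs, with a log2 fold change of 0.14 and a matched 95% interval of -0.08 to 0.35. Gsta3, which in mice conjugates the aflatoxin epoxide, had 13.8, 38.5, 33.8, 21.5 and 46.8 FPKM in WY-14643 replicates 6 to 10, against 10.4, 34.3, 23.1, 13.2 and 37.3 FPKM in vehicle replicates 1 to 5. It was higher in all 5 pairs by 1.12 to 1.62 times (log2 fold change 0.41 ± 0.0738, adjusted p = 0.0930 in the matched limma fit). It lies on chromosome 1, away from the other 4 Gsta genes on chromosome 9.

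Gsta1 was less even across the pairs. It had 35.8, 38.3, 32.1, 42.5 and 20.6 FPKM in WY-14643 replicates 6 to 10, against 49.4, 25.7, 23.8, 15.6 and 9.02 FPKM in vehicle replicates 1 to 5. Vehicle replicate 1 was the highest of the 10 libraries and replicate 5 the lowest, and the log2 fold change of 0.60 had a matched 95% interval of -0.01 to 1.22. Gsta2 (2.15 ± 1.20 and 1.49 ± 0.396 FPKM in WY-14643 and vehicle organoids) and Gsta5 (1.31 ± 0.552 and 0.803 ± 0.264 FPKM) were each higher in 4 of 5 pairs. Of the 100-base windows of Gsta1, 80.6% occur in other genes (Gm3776, Gsta2 and Gm10639), as do 28.4% of those of Gsta2 and 31.9% of those of Gsta5, so the split of reads between these genes is uncertain.

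Gsto1, an omega enzyme that reduces dehydroascorbate and glutathionylated thiols, was second in abundance, at 222, 195, 193, 174 and 234 FPKM in WY-14643 replicates 6 to 10 and 194, 189, 156, 154 and 230 FPKM in vehicle replicates 1 to 5. All 5 pairs were higher, with a log2 fold change of 0.15 ± 0.0540 (adjusted p = 0.393 in the matched limma fit). Its neighbour Gsto2 averaged 1.03 ± 0.584 and 0.558 ± 0.399 FPKM and was higher in all 5 pairs. The pi gene Gstp1 averaged 137 ± 20.7 FPKM in WY-14643 and 121 ± 16.2 FPKM in vehicle organoids, higher in all 5 pairs (0.17 ± 0.0559, adjusted p = 0.348 in the matched limma fit).

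Gstp2 had 11.0, 19.6, 17.7, 18.02 and 21.5 FPKM in WY-14643 replicates 6 to 10, against 14.2, 14.0, 13.8, 11.6 and 9.72 FPKM in vehicle replicates 1 to 5. It was higher in 4 of 5 pairs and lower in the pair of replicates 6 and 1 (log2 fold change 0.43 ± 0.184; unadjusted p = 0.0307 by limma without pairs and 0.0578 in the matched limma fit). Gstp1 and Gstp2 share sequence, 25.1% and 46.9% of their 100-base windows, with each other and with Gstp-ps, so their split of reads is uncertain. Gstp3, with no shared window, averaged 9.97 ± 4.33 and 9.54 ± 3.28 FPKM in WY-14643 and vehicle organoids and was higher in 2 of 5 pairs.

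The theta enzymes act on small halogenated compounds among others. Gstt1 averaged 7.23 ± 3.17 and 5.57 ± 2.42 FPKM in WY-14643 and vehicle organoids, and Gstt3 10.7 ± 5.13 and 9.66 ± 5.78 FPKM; Gstt2 was at a lower level, 0.988 ± 0.354 and 0.615 ± 0.172 FPKM. Each was higher in 4 of 5 pairs, with adjusted p-values of 0.318 to 0.348 in the matched limma fit. Of the exon bases of Gstt3, 13.6% lie in Gm20441 on the same strand. The kappa enzyme Gstk1 averaged 7.76 ± 3.38 and 6.57 ± 1.72 FPKM, higher in 4 of 5 pairs. Gstz1, the maleylacetoacetate isomerase of tyrosine breakdown, had nearly equal means, 5.04 ± 0.626 FPKM in WY-14643 and 5.05 ± 0.431 FPKM in vehicle organoids, with a log2 fold change of -0.01 and a matched 95% interval of -0.16 to 0.15.

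The microsomal glutathione transferases are membrane enzymes that also reduce lipid peroxides. Mgst3 (chr1:167199535-167221410, minus strand, mm39) had 75.2, 93.6, 85.0, 87.2 and 47.7 FPKM in WY-14643 replicates 6 to 10, against 58.6, 46.1, 46.1, 28.9 and 31.1 FPKM in vehicle replicates 1 to 5. All 5 pairs were higher, by 1.28 to 3.02 times, and 4 of the 5 WY-14643 libraries stood above every vehicle library. Its log2 fold change of 0.88 ± 0.165 was the largest of the 35, with an unadjusted p of 0.00303 without pairs, the smallest of the 35, and an adjusted p of 0.117 in the matched limma fit. The matched 95% interval was 0.48 to 1.28.

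Mgst2, which can also make leukotriene C4, averaged 19.6 ± 4.42 FPKM in WY-14643 and 16.9 ± 3.65 FPKM in vehicle organoids, higher in all 5 pairs (log2 fold change 0.20 ± 0.0459, adjusted p = 0.176 in the matched limma fit). Mgst1 averaged 4.72 ± 2.99 and 4.27 ± 2.33 FPKM and ranged more within each group (1.39 to 8.45 FPKM and 1.07 to 7.49 FPKM) than between their means. Differences between pairs held 94.9% of its total sum of squares.

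Among the sulfotransferases, Sult1d1 carried most of the class. This enzyme, known in mice for catecholamines and eicosanoids (chr5:87702504-87716886, minus strand, mm39), had 18.9, 130, 49.5, 75.3 and 46.2 FPKM in WY-14643 replicates 6 to 10, against 8.89, 105, 38.0, 50.4 and 28.6 FPKM in vehicle replicates 1 to 5. The groups overlapped widely, and each pair was higher, by 1.24 to 2.13 times (log2 fold change 0.59 ± 0.102, adjusted p = 0.0910 in the matched limma fit). Differences between pairs held 90.8% of its total sum of squares and differences between groups 7.74%, not divided by degrees of freedom.

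Sult1b1, which sulfates thyroid hormones and phenols, lies 16.4 kb from Sult1d1 and had 3.90, 17.5, 6.41, 10.4 and 2.86 FPKM in WY-14643 replicates 6 to 10, against 1.58, 16.2, 6.65, 5.61 and 1.22 FPKM in vehicle replicates 1 to 5. The gene was higher in 4 of 5 pairs (0.51 ± 0.163, adjusted p = 0.332 in the matched limma fit). Sult1c2 averaged 4.53 ± 1.44 and 5.40 ± 2.77 FPKM in WY-14643 and vehicle organoids and was lower in 4 of 5 pairs. Without vehicle replicate 2, its highest library, its log2 fold change turned to 0.07. Sult2b1, the cholesterol sulfotransferase, averaged 1.52 ± 0.488 and 1.38 ± 0.173 FPKM.

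Across the 29 genes with a mean of at least 1 FPKM, differences between pairs held a median of 79.5% of the total sum of squares. Differences between groups held a median of 7.74%. The shares were not divided by degrees of freedom, of which the 5 pairs have more than the 2 groups, so they do not compare like with like. Mgst3 (60.0% between groups) and Gstp2 (39.9%) were the 2 of the 29 with a larger undivided share between groups than between pairs. The pair of replicates 7 and 2 was the highest for 15 of the 29, and the pairs of replicates 6 and 1 and of replicates 10 and 5 were the lowest for 10 and 11.

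**Figure D5:**
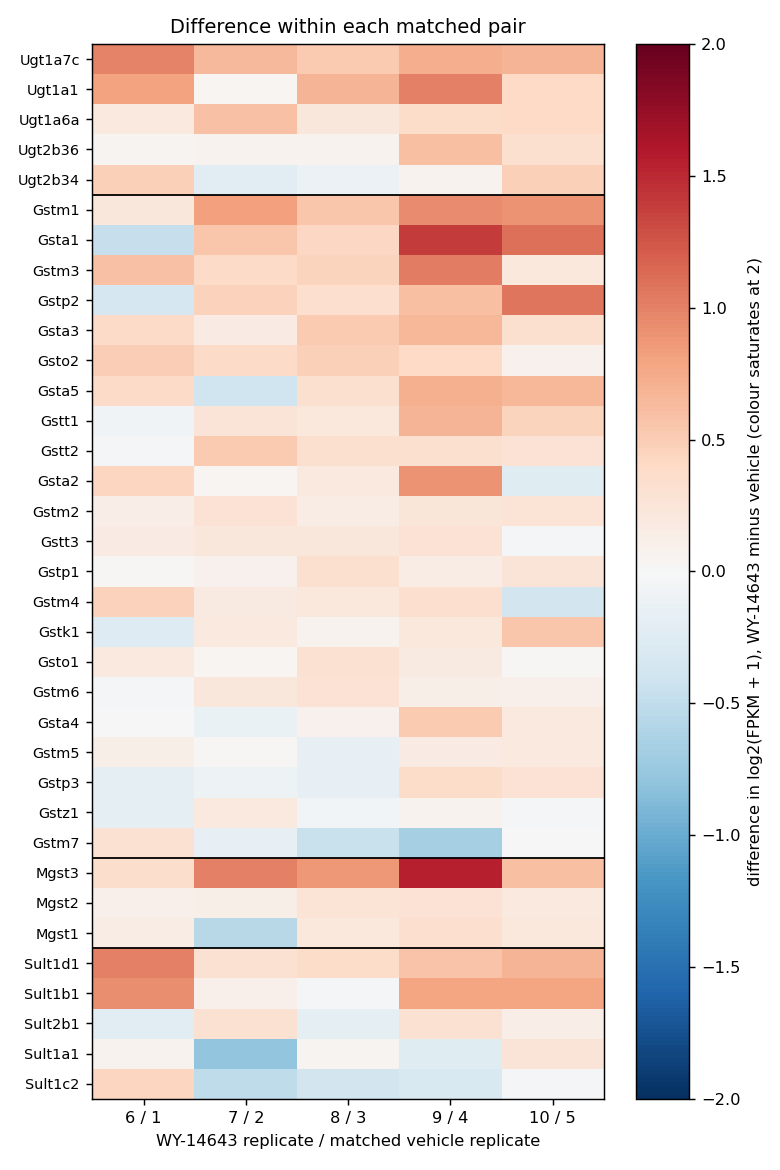
Difference in log2(FPKM + 1), WY-14643 minus vehicle, within each of the 5 matched pairs (columns) for the 35 tested genes (rows, by class, in order of fold change); red is higher in WY-14643 and blue lower. A total of 14 rows are above 0 in every column and 0 rows are below 0 in every column. Gsta1, Gstp2, Gstk1, Gstt1, Gstm6 and Gstt2 are below 0 only in the pair of replicates 6 and 1.

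Markers of cell identity were looked at as well. At an unadjusted matched p under 0.05, 5.48% of all genes tested were higher and 5.09% lower, the background for each list here and below. At that p, 3 of 3 tested genes of the colon list, which holds Cdx2 and Cdx1 beside Car1, were higher (Hoxa13, Hoxb13 and Hoxd13 at 0). The list summed to between 215 and 1736 FPKM in WY-14643 and between 168 and 1056 FPKM in vehicle libraries. Of 7 tested absorptive colonocyte markers 2 were higher and 1 lower, with sums of 42.4 to 208 FPKM in WY-14643 and 40.1 to 158.5 FPKM in vehicle libraries (Car4 at 0). Of 7 tested goblet cell markers 0 were higher and 2 lower, with sums of 18.8 to 78.4 FPKM in WY-14643 and 35.7 to 75.2 FPKM in vehicle libraries. Of 6 tested stem and cycling cell markers 0 were higher and 1 lower, with sums of 73.2 to 195.4 FPKM in WY-14643 and 65.7 to 204.6 FPKM in vehicle libraries. Median log2 fold changes of the tested genes were 0.21 for the colon, 0.24 for the absorptive colonocyte and -0.27 for the goblet cell list. For the stem and cycling cell list the median was 0.05, above 0, although Lgr5, given next, was lower. Chosen after their values were seen, Car1 averaged 652 ± 613 and 360 ± 360 FPKM in WY-14643 and vehicle organoids (adjusted p = 0.240 in the matched limma fit), Muc2, the goblet cell mucin, 4.60 ± 2.42 and 6.28 ± 3.33 FPKM (adjusted p = 0.233), and Lgr5, the stem cell receptor, 3.79 ± 0.554 and 4.79 ± 0.852 FPKM (adjusted p = 0.240). Their part in the results on the transferases was not tested.

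The supply of the cosubstrates was looked at next. Of the genes listed for the supply and use of UDP-glucuronic acid, 7 of 8 were tested, 0 passed and 3 had an unadjusted matched p under 0.05, all higher. The most abundant were Ugp2, which makes UDP-glucose (52.1 ± 8.65 and 48.5 ± 9.47 FPKM in WY-14643 and vehicle organoids), and Pgm1 (42.1 ± 12.5 and 39.1 ± 15.3 FPKM). Ugdh, which oxidises UDP-glucose to the cosubstrate, averaged 37.7 ± 11.5 and 32.0 ± 14.0 FPKM (adjusted p = 0.198 in the matched limma fit), and Slc35d1, a transporter of the cosubstrate into the endoplasmic reticulum, 7.27 ± 1.52 and 6.02 ± 1.30 FPKM (adjusted p = 0.0948). Each of them was higher in all 5 pairs, and both were picked after their values were seen.

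Of the genes of glutathione supply all 12 were tested, 0 passed and 3 were higher at an unadjusted matched p under 0.05. Gclc and Gclm, the subunits of the rate-limiting ligase, averaged 77.0 ± 12.4 and 62.9 ± 8.57 FPKM, and 28.5 ± 8.62 and 22.3 ± 6.73 FPKM, in WY-14643 and vehicle organoids. Both were higher in all 5 pairs, each with an adjusted p of 0.0540 in the matched limma fit, and Gclm was picked after its values were seen. Gsr, which regenerates glutathione, averaged 78.0 ± 20.1 and 73.9 ± 19.8 FPKM. Of the genes of PAPS supply and return 7 of 8 were tested, 0 passed and 1 was higher at an unadjusted matched p under 0.05. Bpnt1, which degrades the spent cosubstrate, averaged 57.5 ± 9.19 and 57.8 ± 11.3 FPKM, and the synthase Papss1 32.2 ± 7.34 and 34.6 ± 9.94 FPKM.

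Later steps stood as follows. In the mercapturate pathway, which trims glutathione conjugates, 6 of 13 genes were tested and 0 passed, also at an unadjusted matched p under 0.05, and Ggt1, Ggt5 and Nat8f3 had no read. Cndp2 averaged 15.96 ± 1.76 and 15.4 ± 1.67 FPKM and Ggt6 11.8 ± 2.74 and 10.8 ± 3.10 FPKM in WY-14643 and vehicle organoids. Of the genes listed for conjugate cleavage 5 were tested, 0 passed and 1 was higher at an unadjusted matched p under 0.05. The list includes Sumf1 and Sumf2, which do not cleave conjugates themselves. The most abundant were β-glucuronidase Gusb, at 24.0 ± 3.41 and 25.0 ± 4.99 FPKM in WY-14643 and vehicle organoids, and Sumf1, at 10.8 ± 1.63 and 11.1 ± 2.10 FPKM. Of the efflux transporters 7 of 13 were tested, 0 passed and 3 were higher at an unadjusted matched p under 0.05. Abcc3, which exports glucuronides at the basolateral side, averaged 66.0 ± 7.55 and 57.7 ± 9.29 FPKM, and Abcb1a, P-glycoprotein, 57.6 ± 23.0 and 34.9 ± 15.1 FPKM (log2 fold change 0.72 ± 0.104, adjusted p = 0.0614 in the matched limma fit, higher in all 5 pairs).

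Of 15 tested genes for other conjugating and detoxifying enzymes, 1 rose in the matched fit (against 0.287% of all genes called higher). At an unadjusted matched p under 0.05, 7 were higher (against 5.48% of all genes) and 0 lower (against 5.09%). The gene that rose was Cbr3, a carbonyl reductase, at 11.6 ± 7.22 FPKM in WY-14643 and 4.21 ± 3.50 FPKM in vehicle organoids (log2 fold change 1.26 ± 0.147, adjusted p = 0.0381 in the matched limma fit, higher in all 5 pairs). Of 10 further genes outside the naming rule 5 were tested and 0 passed, also at an unadjusted matched p under 0.05. The most abundant were Hagh (13.4 ± 3.28 and 12.8 ± 3.61 FPKM in WY-14643 and vehicle organoids) and Glo1 (11.6 ± 2.70 and 11.0 ± 2.31 FPKM). Both belong to the glyoxalase pathway and are not transferases. Hpgds, Ptges, Ltc4s, Alox5ap and Ugt8a of this list were below the filter and were not tested.

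Of 20 tested receptors and factors that control such enzymes, 1 rose in the matched fit (against 0.287% of all genes called higher). At an unadjusted matched p under 0.05, 4 were higher (against 5.48% of all genes) and 0 lower (against 5.09%). The one that rose was Nr1i2, which encodes PXR, at 8.40 ± 4.54 FPKM in WY-14643 and 5.91 ± 3.73 FPKM in vehicle organoids (log2 fold change 0.47 ± 0.0620, adjusted p = 0.0462 in the matched limma fit, higher in all 5 pairs). The factors whose motifs were searched above were named after their values were seen. Nfe2l2 averaged 123 ± 8.17 and 114 ± 7.49 FPKM in WY-14643 and vehicle organoids (adjusted p = 0.485 in the matched limma fit) and Ahr 7.59 ± 1.27 and 7.93 ± 1.25 FPKM (adjusted p = 0.793). Nr1i3, which encodes CAR, was near 0, at 0.0364 and 0.00735 FPKM.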

How the data were processed

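Polyadenylated RNA of 10 mouse colon organoid libraries was sequenced. The authors deposited FPKM; the submitters' processing notes name HISAT2 2.0.5 and featureCounts 1.5.0-p3, and mm39 as the build. Annotation release, strand setting and treatment of multiply matching reads are not stated there. The gene length in the deposited table, in bases, turned FPKM back into reads: 100% of values above 0 came out whole within 0.01. These reads served for depth and for voom.

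Groups follow the treatment label. The comparison of WY-14643 with vehicle used limma 3.58.1 (R 4.3.3) on log2(FPKM + 1), robust eBayes with a trend and no covariate, genes of a mean of at least 0.5 FPKM, Benjamini-Hochberg adjustment over all of them and a threshold of 0.05. Labels share no replicate numbers between groups. Deviations from the group means correlated at 0.423 to 0.782 across genes between replicates 6 and 1, 7 and 2, and so on, and at most at 0.0602 between other libraries of different groups, so these pairs, which come from the data and not from a label, were used as a block in the matched fit, decided from these correlations. The fits were tested on simulated data.

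Exon sharing was measured in GENCODE M21 (GRCm38), from windows of 100 bases of spliced transcripts found in other genes, and promoters came from RefSeq. Figures were drawn with matplotlib 3.10.9. Every gene of the naming rule with a mean of at least 1 FPKM is named; of each other list, the genes that passed, or else the 2 most abundant. The genes and lists were chosen with earlier results of these data known. Some marker genes are not reported here. Alternatives changed pseudocount, filter, scaling, library weights, test and pairing, and left out each library or pair in turn. The median ratio was already 1.009 in every library, so rescaling by it left the values as they were.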

Additional observations from a re-analysis of the deposited data

Results flagged for a closer look

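Of 58 groups looked at (29 genes with a mean of at least 1 FPKM in each group), 2 held a library far from the other 4 (by Dixon's test, which chance meets in about 1 of 20 groups, or 5%). Gstm7 had 2.78 FPKM in WY-14643 replicate 10, while the next highest WY-14643 library had 1.15 FPKM and the lowest 0.562 FPKM. Its matched library, vehicle replicate 5, was also the highest of its group, at 2.80 FPKM. Sult1c2 had 10.2 FPKM in vehicle replicate 2, while the next highest vehicle library had 4.81 FPKM and the lowest 3.04 FPKM. Its matched library, WY-14643 replicate 7, was the highest of its group as well, at 6.88 FPKM.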

How the results depend on the processing

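All counts here are of adjusted p under 0.05. Over all genes the limma fit without pairs called 0, against 43 with the matched pairs as a block, 212 by voom with pairs and 21 with library quality weights; leaving out a library gave 0 to 2, and leaving out a pair from the matched fit 2 without replicates 8 and 3, 3 without 7 and 2, 13 without 9 and 4, and 33 without each of the other pairs. Of the conjugating transferases 0 were called without pairs, against 1 with pairs (Ugt1a7c), also with a pseudocount of 0.1, a filter at 1 FPKM or rescaling to TPM, 2 with pairs and weights (Gstm1 and Ugt1a7c) and 5 by voom with pairs; leaving out a library gave 0 and leaving out a pair 0 to 2. With pairs and no filter on low values 0 were called. The alternatives that combine pairs with another choice (other than voom and left-out pairs) were chosen after seeing the data. The count of transferases higher at an unadjusted matched p under 0.05 was 17, and 13 to 18 with a pair left out; that of transferases lower was 0, and 2 without replicates 6 and 1 (Gstm7 at -0.32 and Sult1c2 at -0.31). For the 29 named genes each alternative was compared with the limma fit without pairs, where none passed, so no value could lose a call. Against that fit 828 of 870 values kept their direction and their side of the threshold, and 12 values in 4 genes newly passed it. The fits with a pair left out in which Ugt1a7c lost its matched call count among the 828. The direction turned in 30 values of 11 genes. With library quality weights the log2 fold change was -0.056 for Gstm5, -0.088 for Gstp3 and -0.033 for Sult2b1, and by voom with pairs it was 0.0022 for Gstz1. Leaving out a library gave -0.10 to 0.28 for Gsta4, -0.021 to 0.34 for Gstk1, -0.021 to 0.45 for Gstm2, -0.16 to 0.16 for Gstp3, -0.044 to 0.45 for Gstt3, -0.046 to 0.053 for Gstz1, -0.23 to 0.34 for Mgst1, -0.30 to 0.065 for Sult1c2, -0.033 to 0.13 for Sult2b1 and -0.18 to 0.42 for Ugt2b34; leaving out a pair turned Gstp3 to -0.042 and -0.025, and Gstz1 to 0.042, 0.0054 and 0.0044. The cause was not tested. The labels share no replicate numbers, so the pairing rests on the data. Genes with few reads, such as Ugt1a1 (7 in 1 library), are the least precise.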
